A study of Mus musculus with 6 samples.

Results

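Expression of 6 genes of red cells and of heme synthesis were followed in whole mouse lung: Alas2, Slc4a1, Hbb-b2, Fech, Bpgm and Rhag. The members were all probe sets whose only gene symbol in the platform annotation was one of these 6, which gave 14 of the 45037 probe sets on the array. Of these, 11 were bright enough to be tested, and 3 were dim: the Rhag probe set 1419014_at, 1 of 3 for Slc4a1 and 1 of 4 for Fech. The study asked what loss of BMP type 2 receptor (BMPR2) signalling in smooth muscle does to the lung, using a dominant-negative receptor, a form that blocks signalling by the normal one. The lungs labelled 8 weeks and 1 week came from SM22-dnBMPR2 inducible transgenic mice in which the transgene had been activated for that time. SM22 is a smooth muscle gene whose promoter targets the system to smooth muscle, and these mice had raised right ventricular pressure, per the series description. The controls carried the transactivator alone, per that description. The label of the male control gives SM22-rtTA only, and that of the female control names no genotype beyond FVB/N. Each group had 1 female and 1 male array, and each array was a pool of 3 mice, so 6 arrays stood for 18 animals. Ages, the activating agent and any treatment of the controls are not given in the sources used here, and differences in them cannot be told apart from the transgene.

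Red cells are made from erythroblasts, which build heme in the mitochondria and load it into globin chains. ALAS2 starts the pathway in erythroid cells, with its housekeeping relative ALAS1 in other tissues, and ferrochelatase (FECH) ends it by placing iron in the ring. Young red cells, or reticulocytes, have lost the nucleus but still hold RNA, so blood within a lung brings erythroid transcripts into a whole-lung extract. In bulk tissue, fewer cells of a type and less RNA per cell cannot be told apart.

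Values are log2 intensities after quantile normalization of the 6 arrays, with a floor at 3.95 below which values were raised to the floor. The 9 defining lung markers examined, among them the surfactant gene Sftpc and the endothelial gene Cdh5, were all tested. Their normalized intensities added up to 50840 in the female and 50991 in the male pool at 8 weeks, 50048 and 47571 at 1 week, and 49433 and 49320 in controls. Quantile normalization ties the brightest of them across arrays, with Scgb1a1 at 13.36 in every group, so it partly fixed how alike these sums are. As deposited, the sums were 48856 and 51380 at 8 weeks, 51964 and 45607 at 1 week, and 51549 and 49247 in controls. Median deposited intensity ran from 50.49 to 63.41 over the arrays, and 11.1% to 12.5% of probe sets on each array were at the lowest value of 10.

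After 1 week of activation 9 of the 11 tested probe sets were higher than control in both sexes. Averaged over the sexes, these changes were 0.43 to 1.05 on the log2 scale. The 9 were Alas2, both tested Slc4a1 probe sets, 2 of 3 for Fech, all 3 for Bpgm and 1 of 2 for Hbb-b2, while the other Hbb-b2 probe set was lower. Their female changes ran from 0.60 (Bpgm 1415865_s_at) to 1.50 (Slc4a1 1434502_x_at). In males they ran from 0.02 (Bpgm 1448119_at) to 0.79 (Alas2). At 8 weeks 5 of the 11 were above control and 6 below, by up to 0.65 and 0.61 on the log2 scale, and 9 of 11 were lower than at 1 week in both sexes. None of the 11 passed limma's test at an adjusted p below 0.05 in any comparison.

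**Figure D1:**
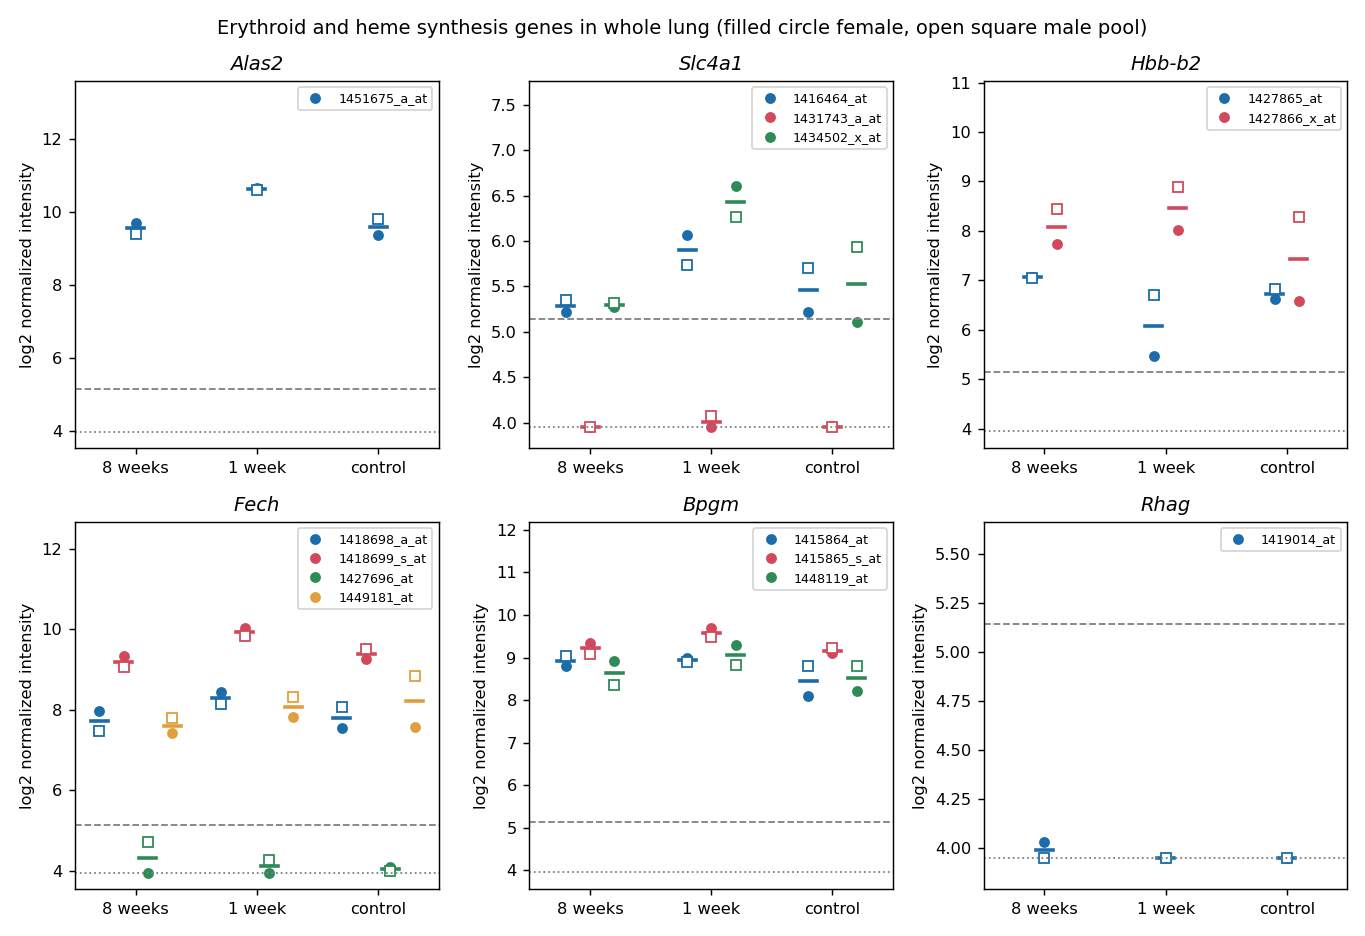
Log2 normalized intensity (y axis) of every member probe set in the 8 weeks, 1 week and control pools (x axis), with filled circles for female pools, open squares for male pools and short bars for their mean. The dotted line is the floor at 3.95 and the dashed line the limit of 5.15 above which a probe set's mean had to lie to be tested. The Alas2 pools at 1 week, at 10.68 and 10.60, stand above the other 4.

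Alas2, the first enzyme of heme synthesis in erythroid cells, was read by the single probe set 1451675_a_at. It measured 9.69 and 9.41 in the female and male pools at 8 weeks, 10.68 and 10.60 at 1 week, and 9.37 and 9.81 in controls. Both 1 week pools lay above all 4 other pools, while the 8 weeks and control pools overlapped. As deposited, the same intensities were 814 and 634 at 8 weeks, 1695 and 1524 at 1 week, and 688 and 925 in controls. At 1 week Alas2 stood 1.05 ± 0.21 above control on the log2 scale (± standard error, 2.07-fold, limma adjusted p = 0.894, higher in 2 of 2 sexes). At 8 weeks the change against control was −0.03 ± 0.21 (adjusted p = 0.937), with 0.33 in females and −0.40 in males, and 0.12 when arrays were centred on their medians instead. Between the durations the 8 weeks level was lower by 1.09 on the log2 scale (−1.09 ± 0.21, adjusted p = 0.136, lower in 2 of 2 sexes).

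The promoters of Alas2 and Bpgm are shown because all tested probe sets of these genes had both 1 week pools above both controls. Each is the stretch of 250 bases before the gene's start, 5′ to 3′ on the plus strand, from RefSeq on GRCm38.p6. Of the members, Alas2, Bpgm and Rhag were searched. Slc4a1 and Hbb-b2 had no entry in the promoter table, and Fech was left out of the search, so nothing is said of its promoter. Capitals mark the letters AGATAA (also with G as the last base, and either form with T as the first), the core bound by the erythroid factor GATA1, and CCNCNCCC, a core bound by KLF1 and other zinc-finger factors, on either strand, where matches of the second motif may overlap each other.
Alas2, chrX:150547167-150547416: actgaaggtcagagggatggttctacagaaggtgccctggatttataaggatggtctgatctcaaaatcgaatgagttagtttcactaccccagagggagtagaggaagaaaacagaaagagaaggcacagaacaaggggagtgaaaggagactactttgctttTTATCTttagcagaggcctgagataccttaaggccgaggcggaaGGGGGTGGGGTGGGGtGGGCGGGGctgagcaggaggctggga
Bpgm, chr6:34476106-34476355: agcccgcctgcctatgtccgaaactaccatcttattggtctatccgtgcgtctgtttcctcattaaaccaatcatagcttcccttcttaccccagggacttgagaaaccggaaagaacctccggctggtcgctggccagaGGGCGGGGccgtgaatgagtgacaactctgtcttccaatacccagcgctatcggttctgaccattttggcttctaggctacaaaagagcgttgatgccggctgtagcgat
The Alas2 window holds 1 GATA match and 4 matches of the second motif. The Bpgm window holds 0 and 1. Over all 32851 windows of that length, 26.5% hold a GATA match and 45.9% the second motif. A match is a description of the letters only.

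Fech, the last enzyme of the pathway, was read by 4 probe sets that did not move alike. The brightest, 1418699_s_at, measured 9.32 and 9.05 in the female and male pools at 8 weeks, 10.02 and 9.83 at 1 week, and 9.24 and 9.50 in controls. Its 1 week pools lay above all others. The change at 1 week against control was 0.56 ± 0.18 (1.47-fold, adjusted p = 0.894), that at 8 weeks against control −0.19 ± 0.18 (adjusted p = 0.576), and that at 8 weeks against 1 week −0.74 ± 0.18 (adjusted p = 0.167).

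A second Fech probe set, 1418698_a_at, had 7.97 and 7.47 at 8 weeks, 8.43 and 8.14 at 1 week, and 7.54 and 8.05 in controls, again with the 1 week pools highest. Its changes were −0.07 at 8 weeks and 0.49 at 1 week against control, and −0.56 at 8 weeks against 1 week. The change at 1 week against control was 0.89 in females and 0.09 in males. The third, 1449181_at, differed: it had 7.41 and 7.78 at 8 weeks, 7.81 and 8.32 at 1 week, and 7.57 and 8.84 in controls, so the male control was its highest pool. Its changes were −0.61 ± 0.26 at 8 weeks (adjusted p = 0.244) and −0.14 at 1 week (adjusted p = 0.995) against control. The fourth, 1427696_at, was dim, between 3.95 and 4.70 in all pools, and was not tested.

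Slc4a1 encodes band 3, the chloride and bicarbonate exchanger that anchors the red cell skeleton. Its probe set 1434502_x_at measured 5.27 and 5.32 in the female and male pools at 8 weeks, 6.61 and 6.26 at 1 week, and 5.11 and 5.94 in controls. The 1 week pools were the highest, and the female and male controls differed from each other by more than the 8 weeks pools did. The change at 1 week against control was 0.91 ± 0.30 (1.88-fold, adjusted p = 0.894), with 1.50 in females and 0.32 in males. At 8 weeks it was −0.23 ± 0.30 against control (adjusted p = 0.686) and −1.14 ± 0.30 against 1 week (adjusted p = 0.181).

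The unsuffixed Slc4a1 probe set 1416464_at had the same order with smaller steps, at 5.22 and 5.35 at 8 weeks, 6.06 and 5.74 at 1 week, and 5.22 and 5.71 in controls. In males its 1 week value exceeded control by only 0.03, against 0.84 in females, for a change of 0.44 ± 0.23 (adjusted p = 0.928). Its 8 weeks change was −0.18 ± 0.23 against control (adjusted p = 0.668) and −0.62 ± 0.23 against 1 week (adjusted p = 0.255). The third Slc4a1 probe set, 1431743_a_at, was at the floor on 4 arrays and no higher than 4.07. Rhag, the Rh-associated glycoprotein of the red cell membrane, was likewise at the floor on 5 of 6 arrays, with 4.03 in the female 8 weeks pool, so no fold is given for either.

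Hbb-b2 is an adult beta globin gene, and its 2 probe sets disagreed. On 1427866_x_at the female and male pools measured 7.73 and 8.43 at 8 weeks, 8.02 and 8.88 at 1 week, and 6.59 and 8.27 in controls. The male pool was higher than the female pool in every group, and the groups overlapped. The changes were 0.65 ± 0.27 at 8 weeks (adjusted p = 0.244) and 1.02 ± 0.27 at 1 week (2.03-fold, adjusted p = 0.894) against control, higher in both sexes each time, and −0.37 ± 0.27 at 8 weeks against 1 week (adjusted p = 0.508).

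On 1427865_at Hbb-b2 measured 7.07 and 7.05 at 8 weeks, 5.46 and 6.70 at 1 week, and 6.63 and 6.82 in controls. The female 1 week pool was the lowest of all, and the 8 weeks pools lay above the others. The changes were 0.34 ± 0.33 at 8 weeks (adjusted p = 0.580) and −0.65 ± 0.33 at 1 week (adjusted p = 0.928) against control, and 0.98 ± 0.33 at 8 weeks against 1 week (adjusted p = 0.236). Over the 6 arrays the 2 Hbb-b2 probe sets had a Pearson correlation of 0.063, whereas Slc4a1's tested pair had 0.983.

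Beta globin copies are near identical, so Hbb-b2 values are uncertain as to the gene. The probe set 1417184_s_at, annotated to Hbb-bt, Hbb-bs, Hbb-b2 and Hbb-b1 together and so no member, measured 12.96 and 12.91 at 8 weeks, 13.02 and 13.00 at 1 week, and 12.77 and 12.95 in controls. It was the 11th brightest of all probe sets, its changes against control were 0.08 at 8 weeks and 0.15 at 1 week, and at this brightness quantile normalization ties the arrays. The deposited intensities, without that step, were 7586 and 7895 at 8 weeks, 8501 and 7875 at 1 week, and 7143 and 8227 in controls, so the male control exceeded the male 1 week pool.

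Bpgm makes 2,3-bisphosphoglycerate, the molecule that lowers the oxygen affinity of haemoglobin. Its brightest probe set, 1415865_s_at, measured 9.34 and 9.08 in the female and male pools at 8 weeks, 9.69 and 9.48 at 1 week, and 9.10 and 9.22 in controls. The 1 week pools were again the highest, by 0.43 ± 0.16 over control (1.34-fold, adjusted p = 0.901), and the 8 weeks pools differed from control by 0.06 ± 0.16 (adjusted p = 0.861) and from 1 week by −0.37 ± 0.16 (adjusted p = 0.310).

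The probe set 1448119_at had 8.91 and 8.34 at 8 weeks, 9.30 and 8.83 at 1 week, and 8.22 and 8.81 in controls, a change of 0.55 ± 0.32 at 1 week that was 1.07 in females and 0.02 in males. On 1415864_at Bpgm stayed high at 8 weeks, with 8.80 and 9.03 there, 8.99 and 8.89 at 1 week, and 8.09 and 8.80 in controls. Its changes against control were 0.47 ± 0.23 at 8 weeks (adjusted p = 0.289) and 0.50 ± 0.23 at 1 week (adjusted p = 0.912), and at 8 weeks against 1 week it stood at −0.03 ± 0.23 (adjusted p = 0.960). The change at 1 week against control was 0.90 in females and 0.09 in males.

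**Figure D2:**
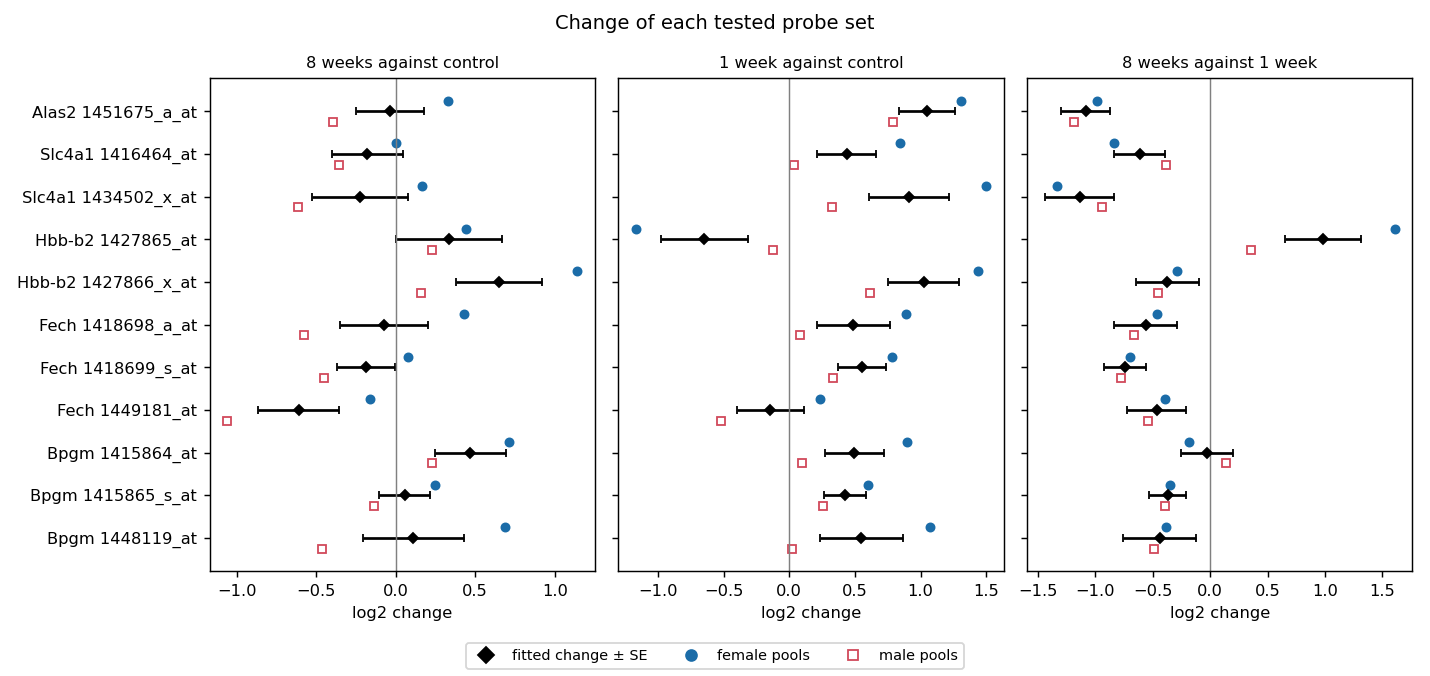
Log2 change (x axis) of the 11 tested probe sets (rows) in 3 comparisons, as the fitted change with its standard error (diamonds) and the change in female pools (circles) and male pools (open squares). At 1 week against control 9 of 11 are higher in both sexes, and Hbb-b2 1427865_at is lower in both.

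Most members stood on 1 side of control after 1 week. At 1 week against control 9 of 11 were higher in both sexes and 1 lower in both, where 27.5% and 25.6% of the 27022 tested probe sets were. In 8 of 11 both 1 week pools exceeded both controls and in 0 both lay below, against 12.5% and 11.1% of all. An unadjusted p below 0.05 was reached by 5 of 11 members and by 5.50% of all, and the adjusted threshold by 0 members and 0% of all, with the smallest adjusted p of all probe sets at 0.570. The members had been chosen with earlier results of these arrays known, and probe sets of 1 gene are not independent, so these shares are a description. The median over the 5 genes with a tested probe set, each at its brightest, was 0.91, beside 0.03 over all 13215 genes. Without probe sets whose names end in _x_at, _s_at or _a_at it was 0.15, but Alas2, with only a suffixed probe set, then dropped out. The median was 0.49 with 1 value per gene, 0.42 without the female control, 1.37 without the male control, and 0.52 without the female 1 week pool.

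Probe sets with these suffixes may detect several transcripts of a gene or a family, or related sequences. All 6 tested members with a suffix were higher at 1 week against control, from 0.43 to 1.05, and 3 of the 5 without one were, over −0.65 to 0.55. The split was not clean, because the unsuffixed probe sets of Slc4a1 and Bpgm were among those that were higher. Between the durations, 8 weeks against 1 week, 0 of 6 suffixed and 1 of 5 unsuffixed members were above 0.

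The members did not move together at 8 weeks against control. Of 11, 3 were higher and 1 lower in both sexes, against 36.5% and 29.0% of all probe sets. In 1 member, Hbb-b2 1427865_at, both 8 weeks pools exceeded both controls, and in 0 both lay below, against 23.0% and 18.8% of all. The adjusted threshold was passed by 0 members and by 0.596% of all, 161 probe sets (0.207% higher and 0.389% lower), and an unadjusted p below 0.05 by 0 members and 23.0% of all. The median over the 5 genes was −0.03, with 0.25 in females and −0.40 in males, beside 0.08 over all genes. The 161 became 1087 without the male 8 weeks pool and 0 without any other single pool, and 0 members passed in each of these fits.

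Between the durations the members were mostly lower at 8 weeks. Lower in both sexes were 9 of 11 and higher in both 1, against 31.6% and 36.3% of all probe sets, and in 7 of 11 both 8 weeks pools lay below both 1 week pools and in 1 above, against 17.7% and 20.7% of all. The adjusted threshold was passed by 0 members and 0% of all, and an unadjusted p below 0.05 by 5 members and 18.5% of all. The median over the 5 genes was −0.74, beside 0.04 over all genes, and −0.25 without suffixed probe sets, which leaves out Alas2. With limma's trend and robust settings 2 members fell, Alas2 1451675_a_at (limma adjusted p = 0.0234) and Fech 1418699_s_at (adjusted p = 0.0452), among 752 probe sets. This comparison shares its 1 week pools with the one against control, so a high 1 week value enters both.

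In every tested member probe set except Hbb-b2 1427865_at, the average change of the transgenic pools was more positive in females than in males. The share of all probe sets that did so was not counted. All members rest on the same control pools, and probe sets of 1 gene are not independent, so this is a description. The difference for Alas2 was 0.62 ± 0.93, with 0.82 in females and 0.20 in males, and the largest was that of Bpgm 1448119_at at 1.10 ± 0.45. In limma's interaction of transgene and sex 0 of 11 members passed (adjusted p = 1.00 for each), as did 0% of all probe sets, with 0 members and 2.35% of all at an unadjusted p below 0.05. That model took both durations together, so its residual spread is the difference between durations within each sex. A change between durations, −1.09 for Alas2, widens its standard error. The test therefore cannot decide whether such members respond differently by sex. The female and male controls come from differently labelled mice, and control genotype and sex cannot be told apart here.

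Red cell genes were also counted by list at 1 week. The heme synthesis, globin, membrane and enzyme lists include members, so their counts and medians use those members again. No list below had a gene that passed in limma at 1 week, where 0% of all tested probe sets did. For the counts below, 27.5% of all tested probe sets were higher and 25.6% lower in both sexes. Of 11 tested heme synthesis genes 5 were higher and 0 lower in both sexes, with a median change of 0.10. After Alas2 and Fech came Alad, the second enzyme of the pathway, at 0.32 ± 0.16 (adjusted p = 0.922). Of 8 tested red cell membrane genes 3 were higher and 2 lower in both sexes (median 0.10). Slc4a1 was followed there by Ank1, the ankyrin that ties band 3 to the skeleton, at 0.56 ± 0.15 (adjusted p = 0.894), and Tspan33, a tetraspanin of erythroid progenitors, at 0.41. Red cell enzymes had 5 higher and 1 lower of 9 (median 0.06), with the red cell pyruvate kinase Pklr at 0.33 and the peroxiredoxin Prdx2 at 0.20 after Bpgm. The embryonic beta-like globin Hbb-y stood at 0.75 ± 0.23 (adjusted p = 0.894), and it too can share signal with other beta globins.

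Regulators and iron genes showed no shared direction at 1 week, where 27.5% of all tested probe sets were higher in both sexes. Of 9 tested erythroid regulators 2 were higher in both sexes, the factors Nfe2 (0.62 ± 0.18) and Gata1 (0.57 ± 0.26), which also serve megakaryocytes, and Bcl11a stood at −0.25. The median was 0.01, and Klf1, Gfi1b, Hemgn and Trim10, among others, were too dim to test. Iron handling genes (10 tested) had a median of −0.02. Among them were the mitochondrial iron importer Slc25a37 at 0.38 ± 0.13, the transferrin receptor Tfr2 at −0.37 ± 0.49 and the ferrireductase Steap3 at 0.30. Tfr2 averaged 4.61 at 1 week and 4.97 in controls, both under the 5.15 limit for testing. Gata1 averaged 5.02 in controls, also under that limit, and passed the filter only through its transgenic pools. Of 9 genes of late erythroblasts and reticulocytes the RNA-modifying enzyme Tent5c was the largest at 0.73 ± 0.13 (adjusted p = 0.894), followed by Ube2l6 at −0.24 and Mkrn1 at 0.17 (median 0.02). Genes of heme breakdown and haemoglobin clearance had a median of 0.08, with haptoglobin, Hp, which binds free haemoglobin, at 0.24, the haemoglobin scavenger receptor Cd163 at 0.19 and Lrp1 at −0.11.

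**Figure D3:**
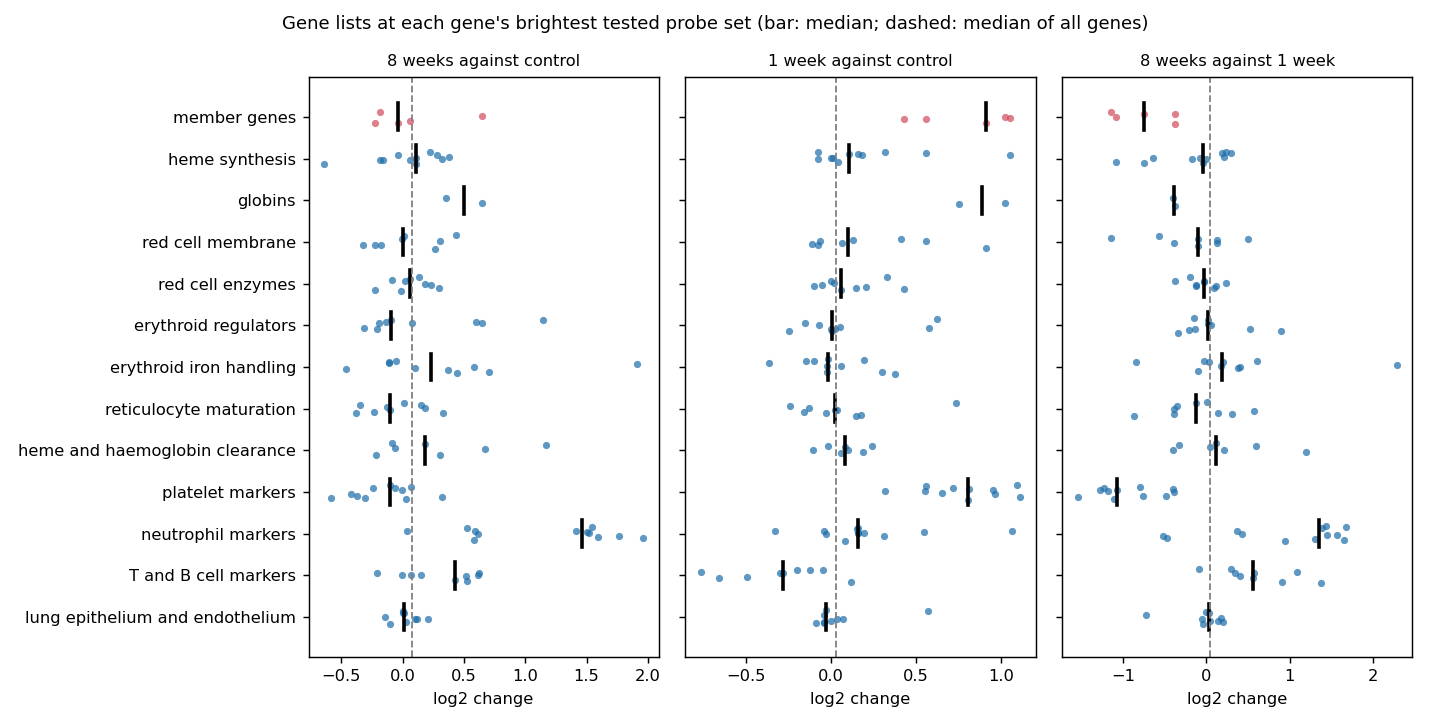
Log2 change (x axis) of each gene at its brightest tested probe set, by gene list (rows), in 3 comparisons, with black bars for list medians and a dashed line for the median of all genes. At 1 week against control the platelet list lies beside the member genes, with medians of 0.81 and 0.91, while the other red cell lists with more than 2 tested genes lie between −0.02 and 0.10.

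In the red cell lists 0 genes passed at 8 weeks against control, where 0.596% of all tested probe sets did. The enzyme Alas1 stood at −0.64 ± 0.13 (adjusted p = 0.104), lower in both sexes, with the porphyrinogen carrier Tmem14c at 0.38 and Alad at 0.32, for a heme synthesis median of 0.11. Among iron genes Tfr2 stood at 1.91 ± 0.49 (adjusted p = 0.127), Steap3 at 0.70 and the iron exporter Slc40a1 at 0.58. Tfr2 averaged 6.89 at 8 weeks but 4.97 in controls, under the 5.15 limit for testing. It passed the filter only through its 8 weeks pools. Heme oxygenase 1, Hmox1, which breaks heme down, stood at 1.17 ± 0.23 (adjusted p = 0.0923), with biliverdin reductase Blvra at 0.67 ± 0.13 (adjusted p = 0.0970) and Hmox2 at 0.31. Slc25a37 was at −0.46 ± 0.13 (adjusted p = 0.142), and at 8 weeks against 1 week at −0.84 (adjusted p = 0.110). Like Alas2 it was highest at 1 week, but Alas2 stood near control at 8 weeks (−0.03 ± 0.21).

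Medians of the remaining lists at 8 weeks ran from −0.10 to 0.50. Regulators stood at −0.10 (Nfe2 1.15 ± 0.18, adjusted p = 0.0711, Bcl11a 0.65, Gata1 0.60), membrane genes at 0.004 (the adhesion molecule Icam4 0.43, the spectrin Sptb −0.32, Tspan33 0.31) and red cell enzymes at 0.06 (Prdx2 0.30, the glutathione peroxidase Gpx1 0.23, Hk1 −0.23). Gata1 averaged 5.02 in controls, under the limit for testing. Late erythroblast and reticulocyte genes stood at −0.10, with Tmcc2 at −0.38, Ube2o at −0.35 and Ube2l6 at 0.33. The 2 tested globins had a median of 0.50, with Hbb-y at 0.36, and the median was 0.95 in females and 0.05 in males.

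Platelet markers were higher in the same 1 week pools as the members, and their part in the result was not tested. They had 11 of 11 tested genes higher in both sexes at 1 week against control, where 27.5% of all tested probe sets were. Of the platelet markers 0 passed, and their median was 0.81. The largest were the receptor Clec1b (1.11 ± 0.23), the glycoprotein Gp9 (1.09 ± 0.35) and neurogranin, Nrgn (0.96 ± 0.30), each with adjusted p = 0.894. Added up, their normalized intensities came to 3091 in the female and 2748 in the male pool at 8 weeks, 4522 and 6445 at 1 week, and 3087 and 3052 in controls. The 6 member genes summed to 2384 and 2153 at 8 weeks, 3877 and 3735 at 1 week, and 1959 and 2601 in controls. Both sums were highest at 1 week in each sex. The platelet sum was higher in the male than in the female 1 week pool, and the member sum was not. At 8 weeks the platelet median was −0.11 (0 of 11 passed), with Tubb1 at −0.58, Itga2b at −0.42 and Ppbp at −0.37.

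Neutrophil markers followed another course. At 1 week their median was 0.16, with Ltf at 1.07, Mpo at 0.55 and Csf3r at −0.33, and 0 of 12 passed. At 8 weeks 4 of 12 passed and were higher, and 11 of 12 were higher in both sexes (median 1.46). Of all tested probe sets 0.207% passed and were higher, and 36.5% were higher in both sexes. The largest neutrophil change was that of the collagenase Mmp8 at 1.96 ± 0.16 (limma adjusted p = 0.0470). Next were S100a9 at 1.76 ± 0.22 (adjusted p = 0.0589) and the lectin Clec4d at 1.60 ± 0.13 (adjusted p = 0.0470). Without any single pool other than the male 8 weeks pool 0 of all probe sets passed, these included. Their summed intensity was 11768 and 12659 at 8 weeks, 4345 and 5336 at 1 week, and 4613 and 4442 in controls. T and B cell markers had medians of 0.43 at 8 weeks and −0.28 at 1 week against control, with 0 of 9 passing each time. The largest were Cd3d (0.63), Cd6 (0.61) and Cd79a (0.52) at 8 weeks, and Cd6 (−0.76), Cd5 (−0.66) and Cd3g (−0.49) at 1 week. Cd6 averaged 4.75 at 1 week, under the limit for testing. The lung markers had medians of 0.01 and −0.03, with Sftpa1 at 0.21, Foxj1 at −0.15 and Aqp5 at 0.12 at 8 weeks, and Foxj1 at 0.57, Aqp5 at −0.09 and Pecam1 at 0.07 at 1 week.

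The genes whose values over the 6 arrays were most like those of Alas2 included several platelet genes. Among 2820 genes spanning at least 1 log2 unit, the 8 with the highest Pearson correlation were Rsad2 (0.961), an interferon-induced antiviral enzyme, Clec1b (0.930), the pyruvate dehydrogenase kinase Pdk4 (0.925), the transcriptional coactivator Cited4 (0.923), the platelet lipoxygenase Alox12 (0.900), Gp9 (0.893), the platelet chemokine precursor Ppbp (0.887) and Rgs18 (0.871), a regulator of G-protein signalling in platelets. Each rests on 6 arrays that share the 3 groups, and no p is given. Cited4 had 4.99 and 4.58 in the female and male pools at 8 weeks, and 5.05 and 5.22 in controls. All of these but the male control lay under the limit for testing. Cited4 passed that filter only through its 1 week pools, at 5.76 and 5.63, so its likeness to Alas2 is partly a result of the filter. Rsad2 had 7.67 and 7.79 in the female and male pools at 8 weeks, 8.63 and 8.63 at 1 week, and 7.36 and 7.96 in controls. Within the controls this is the same order of pools as for Alas2, and at 8 weeks it is the other order. Within the members, Alas2 correlated with the Fech probe sets at 0.895 (1418698_a_at), 0.968 (1418699_s_at) and 0.299 (1449181_at), and with those of Slc4a1 at 0.874 (1416464_at) and 0.943 (1434502_x_at). With Bpgm the correlations were 0.486 (1415864_at), 0.935 (1415865_s_at) and 0.816 (1448119_at), and with Hbb-b2 −0.683 (1427865_at) and 0.532 (1427866_x_at).

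**Figure D4:**
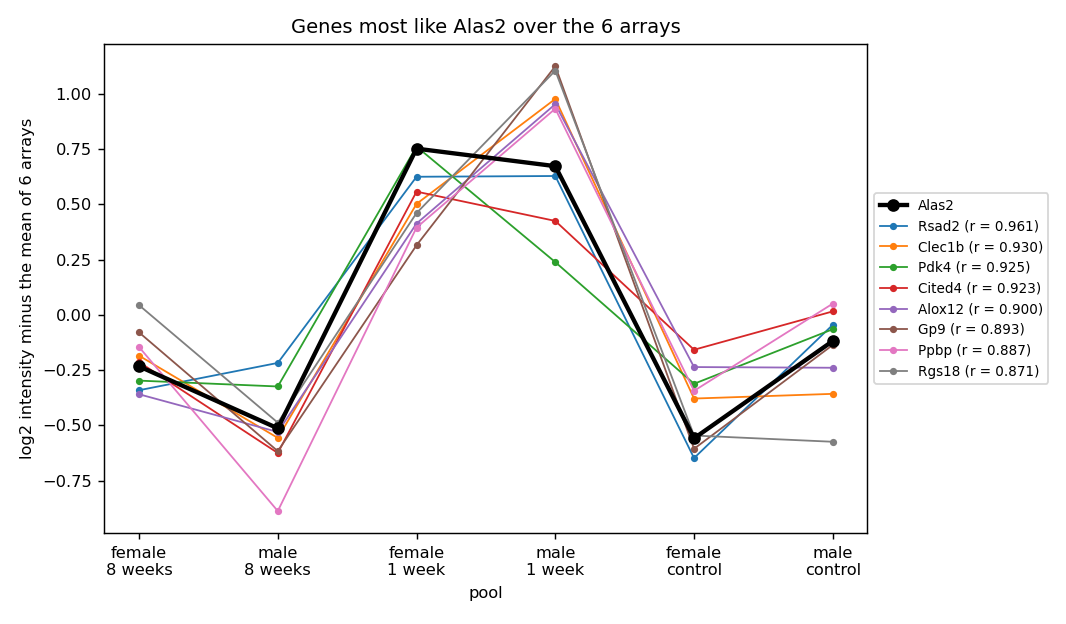
Log2 intensity minus the mean of the 6 arrays (y axis) in each pool (x axis) for Alas2 (black) and the 8 genes most correlated with it, where lines only join values of 1 gene. All 9 genes have their 2 highest pools at 1 week. The 8 were chosen for their likeness to Alas2 on these arrays, so this shared order is no separate result.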

How the data were processed

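RNA from whole lung was labelled with biotin and hybridized to 1 array per pool, per the labels' protocols. The authors deposited linear intensity values, and how probe signals were summarised and scaled is not given in the sources used here. Here, limma's quantile normalization was applied across the 6 arrays, a floor was set at the 20th percentile of the normalized values (15.5), and the result was put on the log2 scale. Probe sets with a mean above the 40th percentile were tested, 27022 of 45037. Symbols came from the platform annotation: 34945 probe sets had 1 symbol, 932 several and 9160 none. Limma 3.58.1 (R 4.3.3) fitted group and sex over 6 arrays (2 residual degrees of freedom, prior 2.77). A second model fitted the interaction of transgene and sex, with both durations together. P-values were adjusted by Benjamini-Hochberg over all tested probe sets, with 0.05 as threshold. In the first model residual spread mixes the spread between pools with any sex difference in response, and the number of arrays limits the precision. The fit was tested on simulated data. Members, gene lists and alternatives were chosen with earlier results of these data known.

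Named were every member probe set, the 3 genes of each list with the largest absolute change against control, and the 8 genes most correlated with Alas2, with a few list members added after their values were seen. Lists used each gene's brightest tested probe set with 1 symbol. Alternatives covered normalization, floor, filter, sex term, arrays in the fit, variance moderation, probe set choice and leaving out each pool. Plots used matplotlib 3.10.9 in Python 3.11.15.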

Additional observations from a re-analysis of the deposited data

How the results depend on the processing

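With 2 pools per group the p-values rest on little replication, and nothing says whether the spread between pools is biological or technical. No member passed in any comparison under any alternative except limma's trend and robust settings, where 2 did at 8 weeks against 1 week. The labels number no replicates, so no block by replicate number was fitted, and the sex term matched the female and male pools across groups. The cause of the shifts below was not tested.

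The count of all probe sets passing at 8 weeks against control, 161, was 461 on deposited values, 705 on median-centred arrays, 439 with the floor at the 40th percentile, 583 with log2(value + 16), 505 with the filter at the 60th percentile, 1916 with trend and robust settings, and 0 without a filter, without the sex term or with only the arrays of the 2 groups. It ran from 0 to 1087 with 1 pool left out. At 1 week against control the count of 0 became 3 with trend and robust settings and 1 with 1 value per gene. Between the durations it became 62 with the filter at the 60th percentile, 752 with trend and robust settings and 118 with 1 value per gene.

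The member median at 1 week against control, 0.91, was 0.15 without suffixed probe sets, where Alas2 dropped out, and 0.42 to 1.37 with 1 pool left out. For 8 weeks against 1 week, −0.74, it was −0.81 on deposited values, −0.62 on centred arrays and −0.59 with 1 value per gene. It was −0.56 both without the filter, where Rhag was added, and with it at the 60th percentile, where Slc4a1 dropped out. Without suffixed probe sets, and so without Alas2, it was −0.25, and with 1 pool left out −0.89 to −0.59. At 8 weeks against control, −0.03, it was −0.35 to 0.26 with 1 pool left out. The median of all probe sets in that comparison was 0.03 here, −0.13 on deposited values and 0.14 on centred arrays.

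Some member changes took the other sign under an alternative. On deposited values, at 8 weeks against control, Bpgm 1415865_s_at was −0.055 and Bpgm 1448119_at −0.011, and on centred arrays Alas2 was 0.12 and Fech 1418698_a_at 0.034. In the same comparison, leaving out the female control gave the lowest and the male control the highest value for Alas2 (−0.35 to 0.27), Slc4a1 1416464_at (−0.46 to 0.11), Slc4a1 1434502_x_at (−0.70 to 0.26), Fech 1418698_a_at (−0.54 to 0.38), Fech 1418699_s_at (−0.43 to 0.058), Bpgm 1415865_s_at (−0.13 to 0.24) and Bpgm 1448119_at (−0.44 to 0.66). Hbb-b2 1427865_at was −0.035 without the female and 0.70 without the male 8 weeks pool. Signs also turned there without the female 8 weeks pool for Bpgm 1415865_s_at (−0.052) and 1448119_at (−0.20), and without the male one for Fech 1418698_a_at (0.23) and Alas2 (0.20). For 1 week against control, Bpgm 1448119_at was −0.0023 without the female and 1.10 without the male control, and Fech 1449181_at −0.56 and 0.27, with 0.0095 without the male 1 week pool. Between the durations Bpgm 1415864_at was 0.099 on centred arrays, 0.26 without the female and −0.31 without the male 1 week pool, and 0.013 without the male 8 weeks pool. Alas2 at 1 week against control was above 0 under all alternatives run.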
